A study of Mus musculus with 6 samples.

Results

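The globin genes of the mouse and Ahsp, the chaperone of free alpha-globin, were followed in the spleen of weanling mice after developmental lead exposure. Probes were taken when the platform annotation listed 1 of 8 genes, alone or among several symbols: Hba-a1, Hba-a2, Hbb-b1, Hbb-b2, Hbb-bh1, Hbb-y, Hba-x and Ahsp. This gave 6 probes of 34949 on the array rows used. They list 5 of the 8 genes, and only the probes of Hbb-y and Hba-x carry a single symbol. Of Hba-a2, Hbb-b1 and Ahsp no probe is listed in the annotation, so no levels are given for these 3 genes.

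Total spleen RNA came from 3 Pb mice, exposed to 0.1 mM lead from gestation day 8, and 3 control mice with no stated exposure. All were BALB/c females at postnatal day 21, and each had 1 CodeLink whole genome array read in 1 colour (Cy5). The labels give no litter, batch or cell fractionation. The number of red cell precursors and the RNA per cell therefore cannot be told apart in these bulk samples. It is also not known whether the p-values reflect more than the spread between these arrays. The 8 erythroid cell markers used here (Slc4a1, Alas2, Klf1, Gata1, Epb42, Rhag, Tfrc and Hemgn) each had a probe of their own above the filter on dim probes, and their control means lay between 3.82 for Epb42 and 7.85 for Alas2 on a log2 scale whose array median is about 0.

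Haemoglobin pairs alpha-type with beta-type chains around haem. The alpha-type genes lie together on chromosome 11 and the beta-type genes on chromosome 7, and each cluster holds embryonic genes, used by yolk sac red cells, beside adult genes, used by fetal liver, bone marrow and spleen. Hba-x, the zeta-like gene, and Hbb-y and Hbb-bh1, the epsilon-like and beta-like embryonic genes, are largely silenced before birth. In the mouse the spleen remains a site of red cell formation after birth.

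Stretches before the start of 4 genes are shown because they are the measured genes, or a gene in a measured probe's entry, for which a sequence was at hand: an adult and an embryonic gene of each cluster. Each is the 250 bases before the annotated start, 5′ to 3′ on the strand of the gene, from RefSeq, build GRCm38.p6. Capitals mark 5 words, searched on either strand: CACCC, the core of elements bound by Krüppel-type factors, CCAAT, the core of the box of that name, ATAAA, found in TATA-type elements, and, for GATA-type elements, AGATAA together with its close variant TGATAA.
Hba-a1, chr11:32283422-32283671, plus strand: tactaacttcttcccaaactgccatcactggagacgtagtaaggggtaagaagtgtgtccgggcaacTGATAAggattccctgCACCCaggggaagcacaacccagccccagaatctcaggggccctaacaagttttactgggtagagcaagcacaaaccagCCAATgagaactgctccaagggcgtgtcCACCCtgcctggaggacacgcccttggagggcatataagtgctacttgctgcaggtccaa
Hba-x, chr11:32276350-32276599, plus strand: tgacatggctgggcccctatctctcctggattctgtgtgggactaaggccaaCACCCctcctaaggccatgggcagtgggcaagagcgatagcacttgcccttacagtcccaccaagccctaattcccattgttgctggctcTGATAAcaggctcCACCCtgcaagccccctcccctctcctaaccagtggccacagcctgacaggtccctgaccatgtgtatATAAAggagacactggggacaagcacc
Hbb-bt, chr7:103813924-103814173, minus strand: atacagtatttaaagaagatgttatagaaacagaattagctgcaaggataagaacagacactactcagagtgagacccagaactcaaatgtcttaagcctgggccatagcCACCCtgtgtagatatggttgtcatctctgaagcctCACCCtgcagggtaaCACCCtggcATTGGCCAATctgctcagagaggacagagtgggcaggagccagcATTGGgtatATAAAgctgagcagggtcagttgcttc
Hbb-y, chr7:103853208-103853457, minus strand: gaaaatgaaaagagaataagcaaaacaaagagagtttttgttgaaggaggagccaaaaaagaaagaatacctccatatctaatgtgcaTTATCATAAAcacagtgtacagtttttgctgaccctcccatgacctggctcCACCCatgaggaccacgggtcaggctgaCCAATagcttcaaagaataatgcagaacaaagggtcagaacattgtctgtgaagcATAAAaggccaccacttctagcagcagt

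The adult alpha gene Hba-a1 holds CACCC at 2 places, CCAAT at 1 and TGATAA at 1, and its embryonic neighbour Hba-x holds CACCC at 2, ATAAA at 1 and TGATAA at 1. The adult beta gene Hbb-bt holds CACCC at 3 places, CCAAT at 3 and ATAAA at 1. Hbb-y holds CACCC at 1, CCAAT at 1, ATAAA at 2 and TGATAA at 1, and the first of its ATAAA words overlaps TGATAA on the other strand by 1 base. AGATAA was in none of the 4 windows. Such words are common: of 32851 windows of the same length, 52.0% held CACCC, 33.8% CCAAT, 37.3% ATAAA, 9.99% AGATAA and 7.94% TGATAA. The window of Hba-a2 shares a run of 247 bases with that of Hba-a1, whereas no other pair of these 5 windows shared a run above 10 bases. The reference strain C57BL/6J carries Hbb-bs and Hbb-bt where BALB/c mice carry Hbb-b1 and Hbb-b2, so the Hbb-bt window need not match the animals measured here.

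The arrays did not read alike. The column of Pb replicate 3 was unrelated to the other arrays probe by probe, with r of 0.046 to 0.048 to the controls, against 0.95 or above between controls, so its globin values are shown nowhere below as measurements of these genes. Pb replicate 2 changed in level along the array, with r of 0.663 to 0.672 to the controls. Values are therefore given as deposited and after the smooth dependence on array row, array column and level had been removed, which brought r to between 0.925 and 0.927 for Pb replicate 2, partly by construction. Its corrected deviations stayed wider, with a scaled median absolute deviation of 0.50, against 0.227 to 0.259 for the controls. For the 6 globin probes the part removed from Pb replicate 2 ran from -3.89 to 1.42 on the log2 scale, which is larger than most differences described here. The plot of deviations along the array rows shows how the globin probes sat on that trend.

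**Figure D1:**
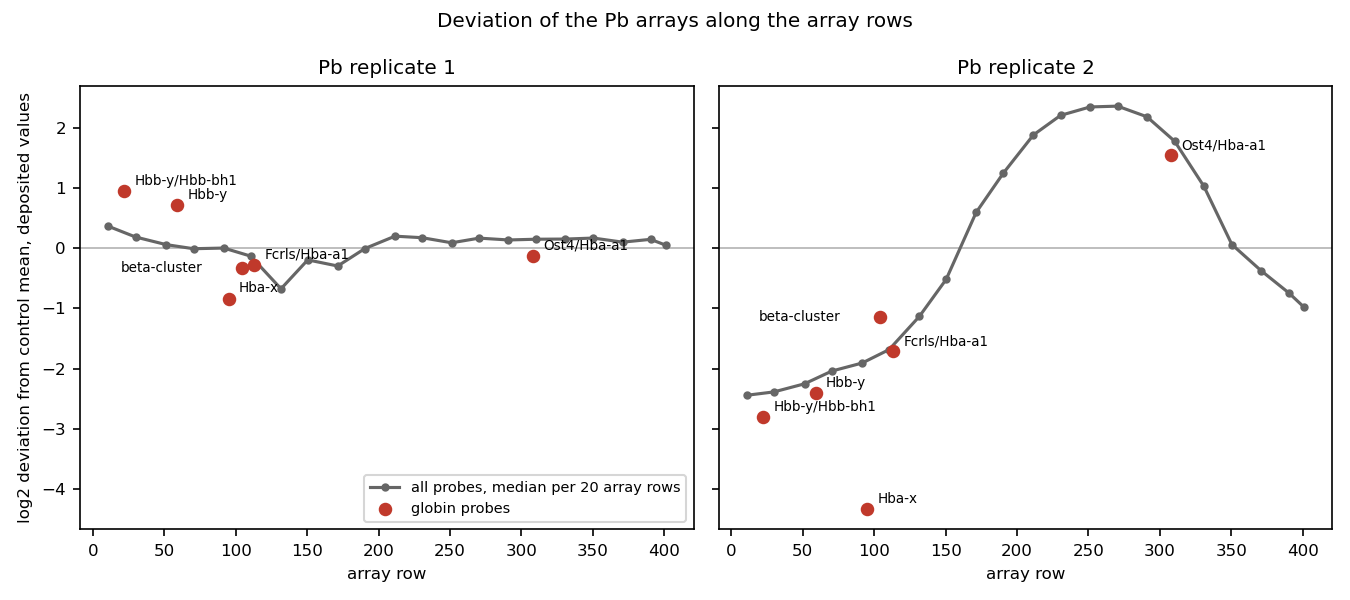
Log2 deviation of each Pb array from the mean of the 3 controls, deposited values, against array row (left, Pb replicate 1; right, Pb replicate 2). The grey line is the median of all probes per 20 rows and the red points are the 6 globin probes. In Pb replicate 2 the 5 globin probes in array rows 22 to 113 lie where the array as a whole was dim, and the Ost4/Hba-a1 probe in row 308 where it was bright.

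The adult genes gave signals at the upper end of the array, whose 99th percentile was 76.8 to 80.4 in controls. The beta-cluster probe, whose entry joins Hbb-bt, Hbb-y, Hbb-bh1 and Hbb-b2, read 343 and 195.0 in Pb replicates 1 and 2, against 429.9, 378 and 482 in controls 1 to 3 (intensity units in which array medians are 0.972 to 0.987). It was the brightest probe of control replicate 3. As deposited, both Pb arrays lay below all 3 controls. After correction the order turned, with log2 levels of 8.89 and 9.26 in the Pb arrays, against 8.58, 8.44 and 8.60 in the controls, so that both Pb arrays exceeded every control. The log2 difference was 0.54 (SE 0.19, 95% interval 0.07 to 1.00, limma adjusted p = 0.621), which did not pass. This probe sits in column 1, the edge of the array, and only 6 probes within 10 rows had a level within 1 log2 unit, so the surface there rests on little data. In Pb replicate 2 those 6 probes deviated from the controls by a median of -2.41 as deposited, against -1.13 for the beta-cluster probe.

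Alpha-globin was seen through a pair of probes whose entries also hold another gene. The Fcrls/Hba-a1 probe read 319 and 118 in the Pb arrays, against 359.6, 359.3 and 450.2 in the controls. A probe that lists Fcrls alone, a receptor-like gene, had a control mean of -1.29 on the corrected log2 scale. Corrected levels of the Fcrls/Hba-a1 probe were 8.15 and 8.76 in the Pb arrays, against 8.58, 8.52 and 8.71 in the controls: Pb replicate 1 lay below all controls and Pb replicate 2 just above them. The log2 difference was -0.15 (SE 0.23, 95% interval -0.71 to 0.41, limma adjusted p = 0.832). Here only 3 probes nearby had a like level.

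The Ost4/Hba-a1 probe, whose entry joins alpha-globin with a subunit of the oligosaccharyltransferase, read 102 and 323 in the Pb arrays, against 107, 103 and 123 in the controls. Unlike Fcrls, Ost4 had no probe that lists it without Hba-a1. How much of this signal is Ost4 and how much alpha-globin is therefore not known. Corrected levels were 6.67 and 6.91 in the Pb arrays, against 6.78, 6.72 and 6.87 in the controls, with a difference of 0.003 (SE 0.17, 95% interval -0.42 to 0.42, limma adjusted p = 0.997). As with the other alpha probe, Pb replicate 1 was the lowest array and Pb replicate 2 the highest. After correction the Fcrls/Hba-a1 probe minus the Ost4/Hba-a1 probe was 1.48 and 1.85 in the Pb arrays, against 1.79, 1.80 and 1.85 in the controls, so Pb replicate 2 lay within the controls and Pb replicate 1 below them. As deposited this distance was 1.65 and -1.45 in the Pb arrays, against 1.75, 1.80 and 1.87 in the controls, so the place of Pb replicate 2 beside the controls came with the correction (array rows 113 and 308).

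**Figure D2:**
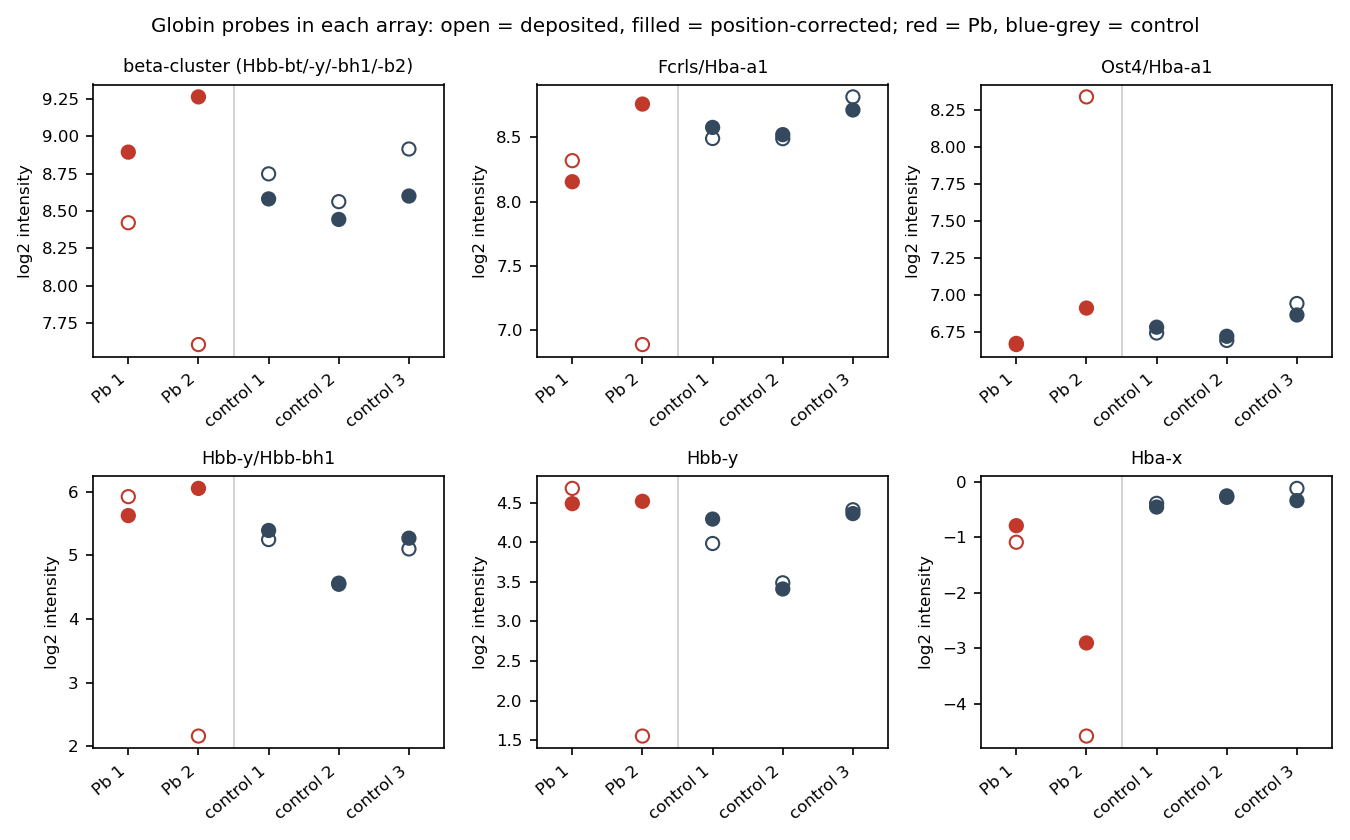
Log2 intensity of the 6 globin probes in each array (Pb arrays left and red, control arrays right and blue-grey), with open circles for deposited and filled circles for position-corrected values, 1 animal per point. The deposited values of Pb replicate 2 lie far from the rest in all 6 panels, and after correction those of the beta-cluster probe (8.89 and 9.26) lie above the controls while those of Hba-x (-0.79 and -2.90) lie below.

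The balance of beta over alpha signal was taken within each array as the beta-cluster probe minus the Fcrls/Hba-a1 probe (array rows 104 and 113). Corrected, it was 0.74 and 0.50 in the Pb arrays, against 0.00, -0.08 and -0.11 in the controls, and the groups did not overlap. As deposited it was 0.10 and 0.72 in the Pb arrays, against 0.26, 0.07 and 0.10 in the controls, and Pb replicate 1 lay within the controls. The separation in Pb replicate 1 thus came with this form of correction. With the median of nearby probes of like level removed instead, the beta-cluster and Fcrls/Hba-a1 probes were at 8.73 and 8.71 in Pb replicate 1. Controls 1 to 3 then had 8.74, 8.52 and 8.70 for the beta-cluster probe and 8.39, 8.53 and 8.54 for Fcrls/Hba-a1. The balance in Pb replicate 1 lay within the controls there. How many probe pairs over the array separate likewise was not counted. Against the Ost4/Hba-a1 probe, the corrected beta-cluster signal was 2.22 and 2.35 in the Pb arrays and 1.80, 1.72 and 1.73 in the controls. As deposited the order was the opposite, with 1.76 and -0.73 in the Pb arrays, both below the 2.00, 1.87 and 1.97 of the controls. With nearby probes of like level, Ost4/Hba-a1 was at 6.88 in Pb replicate 1, against 6.59, 6.60 and 6.90 in the controls. This balance too then lay within the controls in Pb replicate 1.

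The probes of the embryonic beta-type genes read above the array median in every Pb and control array shown. Whether adult beta-globin transcripts also bind these probes was not tested, and no detection call was at hand. The probe of Hbb-y alone read 25.6 and 2.94 in the Pb arrays, against 15.8, 11.2 and 21.2 in the controls. The Hbb-y/Hbb-bh1 probe read 60.5 and 4.48 in the Pb arrays, against 38.0, 23.6 and 34.3 in the controls. Both were higher in Pb replicate 1 than in every control already as deposited, while Pb replicate 2 was lowest.

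After correction both Pb arrays exceeded every control for both probes. Levels of Hbb-y were 4.49 and 4.52 in the Pb arrays, against 4.29, 3.41 and 4.36 in the controls, a difference of 0.48 (SE 0.32, 95% interval -0.30 to 1.26, limma adjusted p = 0.643). Levels of the Hbb-y/Hbb-bh1 probe were 5.62 and 6.05 in the Pb arrays, against 5.39, 4.54 and 5.27 in the controls, a difference of 0.77 (SE 0.31, 95% interval 0.02 to 1.52, limma adjusted p = 0.621). Neither passed, and for each probe the gap between the lower Pb array and the highest control was smaller than the control SD, which was 0.53 for Hbb-y and 0.46 for the Hbb-y/Hbb-bh1 probe. Without the dependence on level in the correction both differences turned, to -0.12 for Hbb-y and -0.07 for the Hbb-y/Hbb-bh1 probe.

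Control replicate 2 was the lowest control for both Hbb-y probes after correction, as it was for 40 of the 65 tested genes of the erythroid lists described below, against 8040 of all 24464 probes tested. After correction Hbb-y minus the beta-cluster probe was -4.41 and -4.75 in the Pb arrays, against -4.29, -5.03 and -4.24 in the controls. As deposited it was -3.74 and -6.05 in the Pb arrays, against -4.76, -5.07 and -4.50 in the controls. This distance varied between arrays on either scale, and the entry of the beta-cluster probe also holds Hbb-y and Hbb-bh1. Corrected, Hbb-y minus the Hbb-y/Hbb-bh1 probe was -1.14 and -1.53 in the Pb arrays and -1.10, -1.13 and -0.91 in the controls. Hbq1b, a theta-type alpha-cluster gene, had 4.49 and 4.81 in the Pb arrays, against 4.85, 4.10 and 4.45 in the controls, again with control replicate 2 lowest, and a difference of 0.18 (limma adjusted p = 0.822). The summed corrected intensity of the 8 erythroid cell markers was 438.9 and 629.3 in the Pb arrays, against 573, 398.7 and 508.9 in the controls.

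Hba-x, the embryonic zeta-like gene, read lower in both Pb arrays than in the controls. Its probe was dim, at 0.470 and 0.0418 in the Pb arrays, against 0.764, 0.838 and 0.921 in the controls. The control values were close to the array median, and no detection call was at hand. As deposited, Hba-x was at -4.58 log2 in Pb replicate 2, near the floor of -5.05 given to the lowest intensities of that array. Both Pb arrays lay below all controls as deposited and after correction, when levels were -0.79 and -2.90 in the Pb arrays, against -0.46, -0.28 and -0.34 in the controls.

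The log2 difference of Hba-x was -1.49 (SE 0.58, 95% interval -2.91 to -0.07, limma adjusted p = 0.621), and it did not pass. Most of it came from Pb replicate 2: without that array it was -0.43 (adjusted p = 0.619), and without Pb replicate 1 it was -2.46 (adjusted p = 0.0034), with the lone Pb array assumed to vary like the controls. Among the 9213 tested probes with a control level within 1 log2 unit of Hba-x, both Pb arrays lay below all controls for 11.3%, and the scaled median absolute deviation was 0.60 in Pb replicate 2, against 0.30 in Pb replicate 1. With 0.1 added to each intensity in place of the floor, the log2 difference of Hba-x was -0.84. The probe sits 3 columns from the edge of the array.

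Of the 6 globin probes 0 passed the adjusted p of 0.05 in limma, and 3 had an unadjusted p under 0.05, namely the beta-cluster probe and the Hbb-y/Hbb-bh1 probe, which were higher (2 probes, against 3.94% of all), and Hba-x, which was lower (1 probe, against 3.3%). Over all 24464 probes tested 0.0572% passed the adjusted threshold and 7.24% had an unadjusted p under 0.05. All 6 globin probes passed the filter on dim probes. In 3 of the 6 both Pb arrays exceeded every control, against 14.1% of all probes, and in 1 both were under every control, against 12.7%. Taken alone, Pb replicate 1 exceeded every control in 3, against 27.7%, and was under them in 3, against 30.6%. Pb replicate 2 exceeded them in 5, against 40.4%, and was under them in 1, against 31.7%. As deposited both Pb arrays exceeded every control in 0 probes, against 18.8%, and were under them in 3, against 23%. In those values Pb replicate 1 exceeded the controls in 2, against 35.5%, and was under them in 4, against 40.1%, and Pb replicate 2 exceeded them in 1, against 43.1%, and was under them in 5, against 49.9%. The median log2 difference over the 6 probes was 0.24, against 0.03 over all probes. Several of these probes can bind the same transcripts, so they are not separate counts of a response.

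**Figure D3:**
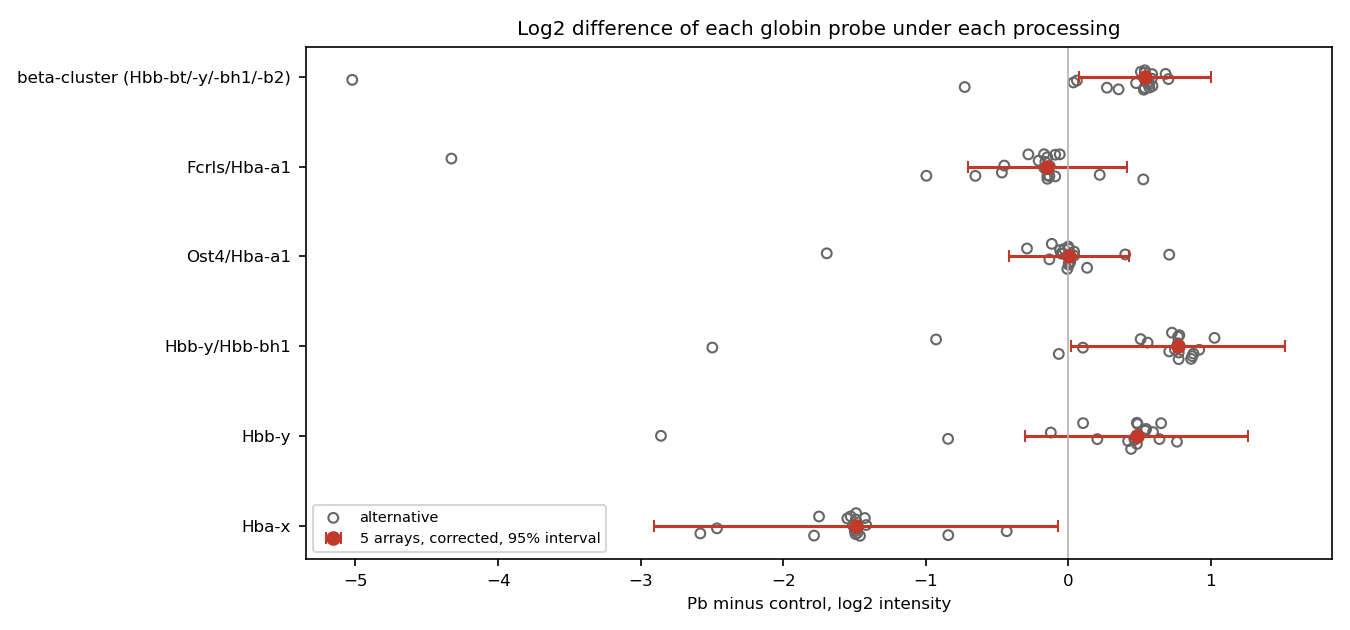
Pb minus control on the log2 scale for each globin probe: red points with 95% intervals for the 5 corrected arrays, and open circles for each alternative processing. The points from -5.02 to -1.69 that stand apart on the left in 5 of the probes are the fit of all 6 arrays as deposited, which includes Pb replicate 3, and Hba-x keeps below 0 throughout.

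The genes that make red cells with the globins showed no difference past the threshold either. Of 74 genes listed in 4 erythroid lists, 66 had a probe of their own and 65 were tested. In limma 0 rose, 0 fell and 65 did not pass, with a smallest adjusted p of 0.621, and 3 had an unadjusted p under 0.05 (1 higher, 2 lower). The median log2 difference was 0.11, against 0.03 over all probes. After correction the Pb arrays differed in sign. In Pb replicate 1 the median deviation from the control mean was -0.17, with 36 of 65 genes below every control, against 30.6% of all probes. In Pb replicate 2 it was 0.34, with 47 of 65 above all controls, against 40.4%. As deposited the medians were -0.06 in Pb replicate 1 and -0.73 in Pb replicate 2, of the same sign, against -0.006 and -0.29 over all probes. After correction the Fcrls/Hba-a1 and Ost4/Hba-a1 probes ran with that split. The beta-type probes did not, being higher than the controls in both Pb arrays. This contrast depended on the form of the correction. With the median of nearby probes of like level, Pb replicate 1 lay above all controls for Fcrls/Hba-a1 (8.71, against 8.39 to 8.54). It lay within them for the Ost4/Hba-a1 and beta-cluster probes, and above them for the Hbb-y and Hbb-y/Hbb-bh1 probes. The contrast between alpha-type and beta-type probes was not tested.

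Among 21 regulators of globin genes 0 passed, and 18 had a difference above 0 (median 0.14), against 53.6% of all probes tested. Of the 21, 20 lay above all controls in Pb replicate 2, against 40.4% of all probes, whereas 14 lay below them in Pb replicate 1, against 30.6%, where the median deviation was -0.20. The brightest were Zbtb7a, a repressor of fetal globin in human cells, Tal1, a factor of the erythroid GATA1 complex, and Nr2c2, an orphan nuclear receptor that binds embryonic globin promoters, with differences of 0.07, 0.19 and 0.14 (limma adjusted p from 0.711 to 0.928). Sox6, which represses Hbb-y in the mouse, had levels of 2.03 and 0.97 in the Pb arrays, against 2.62, 2.37 and 2.52 in the controls. Both Pb arrays lay below all controls, also as deposited, with a difference of -1.00 (SE 0.33, limma adjusted p = 0.621). As deposited, Sox6 deviated by -4.28 in Pb replicate 2, where the medians of all probes in nearby array rows were -2.25 and -2.04. Those medians cover all levels, and the correction, which also follows level, removed -2.71 from Sox6 in that array. Eif2ak1, the kinase that slows globin translation when haem is short, had levels of 0.14 and 1.11 in the Pb arrays, against 0.17, -0.12 and -0.01 in the controls, with a difference of 0.61 (limma adjusted p = 0.621).

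Of 12 tested genes of haem synthesis and iron supply 7 had a difference above 0 (58.3%, against 53.6% of all probes) and 0 passed (median 0.10). Alad, the enzyme that lead inhibits, had 7.67 and 8.31 in the Pb arrays, against 7.70, 7.70 and 7.85 in the controls, and a difference of 0.24 (limma adjusted p = 0.732). Alas2, which sets the pace of erythroid haem synthesis, differed by -0.07, and Slc25a37, the mitochondrial iron importer, by 0.09. The largest differences were 0.56 for Ppox and -0.50 for Cpox, enzymes of late steps of the pathway, each with both Pb arrays on 1 side of the controls (limma adjusted p = 0.621 for both).

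Of 15 tested genes of the red cell membrane 9 had a difference above 0 (60%, against 53.6%) and 0 passed (median 0.13). Slc4a1, the anion exchanger band 3, had 6.53 and 7.42 in the Pb arrays, within and above the controls, and a difference of 0.38 (limma adjusted p = 0.680). Ank1, its anchor to the skeleton, had 4.33 and 5.65, below and above the controls, and a difference of 0.36. Rhd, an Rh antigen, and Sptb, beta-spectrin, differed by -0.08 and 0.25. Of 17 red cell enzymes and late genes 11 had a difference above 0 (64.7%, against 53.6%) and 0 passed (median 0.10). Prdx2, a peroxiredoxin, differed by -0.11, the carbonic anhydrase Car2 by 0.15 and the biliverdin reductase Blvrb by -0.22. Pklr, the red cell pyruvate kinase, had the largest difference upward, 0.44, and Car1 the largest downward, -0.38 (limma adjusted p = 0.627 and 0.672).

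**Figure D4:**
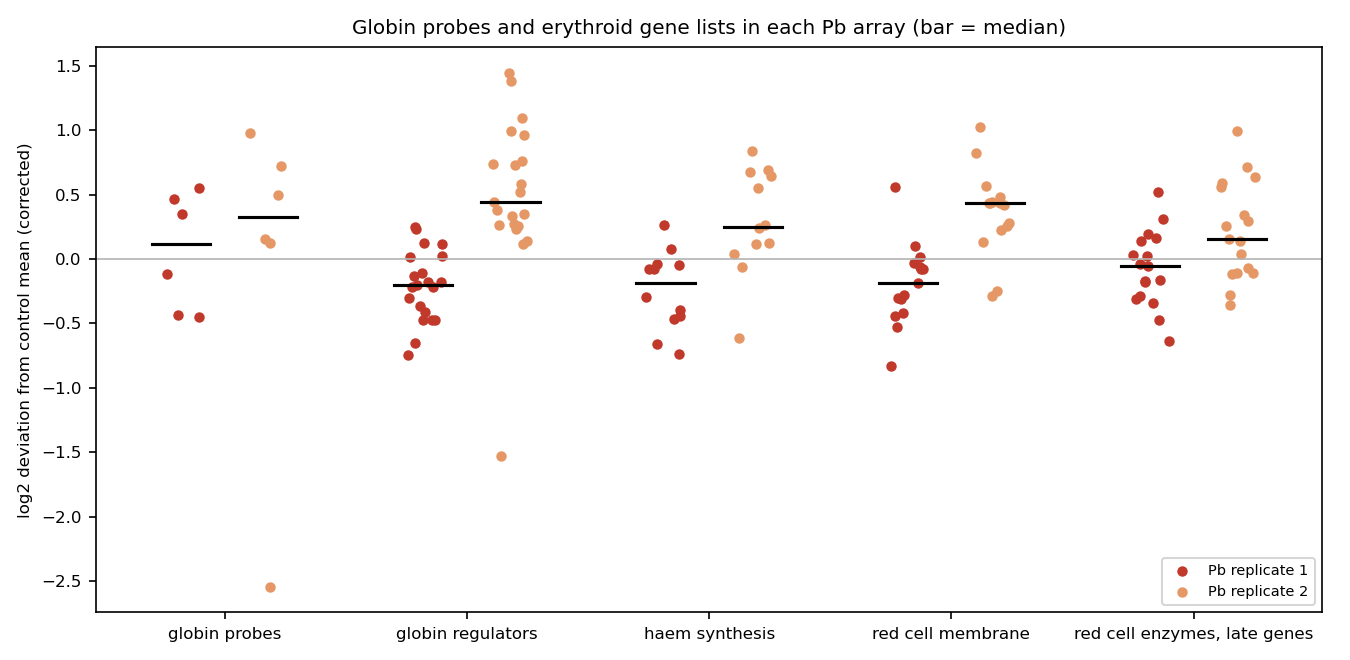
Corrected log2 deviation from the mean of the 3 controls for the globin probes and the 4 erythroid gene lists, with Pb replicate 1 in red, Pb replicate 2 in orange, 1 point per probe and a bar at the median. In all 4 erythroid lists the median of Pb replicate 1 (-0.20 to -0.05) lies below 0 and that of Pb replicate 2 (0.16 to 0.45) above it.

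Markers of other cells are given beside these values, and their part in the globin levels was not tested. Of the 10 exocrine pancreas genes listed 8 were tested. All 8 were higher in either Pb array than in any control, against 14.1% of all probes. Of the 8, 6 rose past the threshold, against 0.0572%. The summed corrected intensity of the 8 was 122.9 and 163.1 in the Pb arrays, against 11.9, 11.2 and 9.54 in the controls. The filter on dim probes used the mean over all 5 arrays, so high Pb values could carry a probe past it. Among the 6, Amy2a5, Try5, Cpa1, Cpb1 and Cela3b had control means at percentiles 0.93 to 23.6 of all probes. Without the filter 0 of all probes passed. Of 9 neutrophil genes all 9 lay above all controls in Pb replicate 1, against 27.7% of all probes. In Pb replicate 2 none did, against 40.4% of all probes. The neutrophil sums were 646 and 353 in the Pb arrays, against 458, 362 and 333 in the controls. The B cell sum over 9 genes was 468 and 464 in the Pb arrays, against 489, 467 and 475 in the controls. The T cell sum, also over 9, was 116 and 101 in the Pb arrays, against 95.7, 119 and 101 in the controls, and the red pulp macrophage sum was 351 and 283 in the Pb arrays, against 381, 312 and 314 in the controls. The megakaryocyte sum was 343 and 273 in the Pb arrays, against 316, 346 and 274 in the controls. The sum of 8 genes of cycling cells was 611 and 710 in the Pb arrays, against 734, 714 and 776 in the controls. The brightest of these 8, Mki67, lay below all controls in both Pb arrays. Gene by gene, 5 of the 8 had a difference above 0 (median 0.09), against 53.6% of all probes tested. In Pb replicate 1, 7 lay below all controls, against 30.6%, and in Pb replicate 2, 6 lay above them, against 40.4%.

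Other members of the globin superfamily were measured as well. Ngb, neuroglobin, had levels of 2.65 and 2.56 in the Pb arrays, against 2.20, 2.16 and 1.97 in the controls, and both Pb arrays exceeded every control also as deposited. Its difference was 0.49 (SE 0.17, limma adjusted p = 0.621). As deposited, Ngb deviated by 2.87 in Pb replicate 2, where the median of all probes in nearby array rows was 2.35. Cygb, cytoglobin, differed by -0.14, with Pb replicate 1 above and Pb replicate 2 below the controls. Of the probes of Mb, the muscle myoglobin, 1 was tested, with a difference of 0.37 (limma adjusted p = 0.659). Hbq1a and Adgb lay under the filter on dim probes.

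The profile of the adult globin probes was averaged over the beta-cluster, Fcrls/Hba-a1 and Ost4/Hba-a1 probes and centred over the 5 arrays. It was -0.12 and 0.28 in the Pb arrays, against -0.05, -0.14 and 0.03 in the controls. The 6 genes with the nearest profile, by root mean square distance over 5 arrays, were Acad11 (0.023), Atp5h (0.027), Nol12 (0.028), Rab7 (0.029), Slc40a1 (0.031) and Fam117a (0.031). Their profile was close to that mean, while the 3 globin probes themselves lay 0.20, 0.15 and 0.08 from it. Slc40a1 is ferroportin, the iron exporter of red pulp macrophages.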

How the data were processed

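The deposited table holds probe intensities on a linear scale for 6 arrays (35587 probes), per the file headers and the values, and the labels name CodeLink arrays and Cy5. What scanner software was used, and how the authors corrected background and normalized, was not given in the sources used here; array medians of 0.972 to 0.987 point to scaling by a median. Of the probes, 21615 had 1 symbol, 681 several and 13291 none. The number of arrays limits the precision.

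Before taking log2, the 151 to 711 intensities per array that were not above 0 got a floor, the 1st percentile of that array's positive intensities. Pb replicate 3 and array rows above 401 were left out, because values there did not follow the probes. A smooth surface (bam in mgcv 1.9.3; 40, 6 and 8 basis functions for array row, level and array column) was fitted to how each array departed from the average of Pb replicate 1 and the controls, and was subtracted, with 2 rounds in all. Pb was compared with control by limma 3.58.1 in R 4.3.3 (lmFit, eBayes, two-sided, Benjamini-Hochberg) over the 24464 probes with a mean at or above the 30th percentile. The fit was tested on simulated data, and the outcome is not given here, so no result rests on it. Lists used 1 probe per gene, the brightest. Named by rule were all globin probes, per erythroid list the 3 brightest genes and the 2 with the largest difference, and the 6 genes nearest to the adult globin profile among probes at or above the 75th percentile. The brightest markers of other cells, which the same rule covers, were Ighm and Cd79b, Cd3g and Cd3d, C1qa and C1qc, Ngp and S100a9, Ppbp and Pf4, Cela1 and Sycn, and Mki67 and Birc5, and they enter the sums. The members, lists, the left-out array and the correction were chosen with earlier results of these data known. Alternatives changed the correction, scaling, floor, filter, variance model, arrays and probes. RefSeq names and sequences are of GRCm38.p6; the sources name no build for the arrays.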

Additional observations from a re-analysis of the deposited data

How the results depend on the processing

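The sign of the difference turned with the form of the correction for the 3 beta-type probes, which kept it with any 1 array left out, and with the form of the correction and with 1 array left out for both alpha probes. Without correction the differences were -0.93 for the Hbb-y/Hbb-bh1 probe, -0.84 for Hbb-y and -0.73 for the beta-cluster probe, and with surfaces without dependence on level -0.067, -0.12 and, for the Ost4/Hba-a1 probe, -0.29. All 6 arrays as deposited gave -2.50, -2.86, -5.02 and, for Ost4/Hba-a1, -1.69. The Fcrls/Hba-a1 probe turned to 0.22 without Pb replicate 1 and to 0.53 with the median of nearby probes of like level, an alternative chosen after the data were seen. The Ost4/Hba-a1 probe, at 0.003, also turned to -0.13 with a smooth over array row alone, -0.050 with 15 basis functions, -0.059 with the 75th percentile, -0.039 with quantile normalization and -0.0071 with array weights, and to -0.12, -0.0007 and -0.029 without Pb replicate 2, control replicate 1 and control replicate 2, within a range of -0.12 to 0.13 with 1 array left out. Hba-x kept its sign in the 18 of 18 alternatives that tested it (-2.58 to -0.43) and was called in 1 of them, without Pb replicate 1. No other globin probe was called in any of 20 alternatives, with adjusted p down to 0.064 in limma.

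The median over globin probes, 0.24, became -0.89 without correction, -0.037 with a smooth over array row alone, -0.21 without dependence on level, -0.0015 with quantile normalization, 0.48 with the filter at the 50th percentile, which drops Hba-x, -2.86 in 6 arrays, -0.50 over the probes with 1 symbol, -0.15 with 1 probe per gene, 0.61 with nearby probes, and 0.087 to 0.38 with 1 array left out. In the same order, where run, the median of Pb replicate 1, 0.12, became -0.20, -0.18, -0.056, -0.047, 0.017 (1 symbol) and -0.43 (1 probe per gene), and 0.0034 to 0.17 with 1 array left out. That of Pb replicate 2, 0.33, became -2.06, -0.45, -0.58, 0.044, -1.03 (1 symbol), 0.16 (1 probe per gene), 0.72 (nearby probes) and 0.21 (75th percentile), and 0.17 to 0.43 with 1 array left out. The erythroid lists, at 0.11, became -0.39, -0.28, -0.41, -1.47 in 6 arrays and 0.39 with nearby probes, and -0.17 to 0.34 with 1 array left out, the lowest without Pb replicate 2 and the highest without Pb replicate 1. The 14 probes called over all became 0 without correction, 0 without the filter, 0 in 6 arrays, 7 with array weights and 22 with trend and robust, and 2 to 2886 with 1 array left out (2 without control replicate 2, 2886 without Pb replicate 1, when Pb replicate 2 stands alone). The globin probes called were 0 to 1.

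Replicate numbers share no stated source, and same-numbered arrays had deviations with r = 0.062 and 0.011. With the replicate block 11 probes were called and 0 globin probes, and their median was 0.30. The cause of these changes was not tested. Fits with fewer arrays also have fewer degrees of freedom, and the part of this in the changes was not tested either. Dim signal limits Hba-x, and few probes of like level limit the beta-cluster and Fcrls/Hba-a1 probes. The Ost4/Hba-a1 probe had 31 such probes nearby.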
